A study of Rattus norvegicus with 2 samples.

Results

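Matrix proteases, their inhibitors and the plasminogen activators were followed in the urine of rats with and without obstruction of a ureter. The set held 9 genes, taken from the 16484 features with NCBI gene IDs by their gene symbols: the matrix metalloproteinase genes Mmp2, Mmp7, Mmp9 and Mmp14, the inhibitor genes Timp1, Timp2 and Timp3, the urokinase gene Plau and its receptor gene Plaur. All 9 were listed in the deposited table. Total RNA was sequenced from 2 urine libraries of Sprague Dawley rats aged 8 weeks, given in the labels as postnatal day 56. The UUO library (unilateral ureteral obstruction) stands for the group whose right ureter was tied, and the library titled WT for the group that had the operation without the tie (sham). Kidneys were taken after 2 weeks. Per the study's methods, urine of both groups was drawn from the ureter through a catheter, in the UUO rats from the ureter stump joined to the obstructed kidney. How many animals were pooled is not given in the sources used here. UUO models scarring of the kidney behind a closed ureter.

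The level of a gene was given as FPKM, a fragment count corrected for transcript length and scaled by a normalising total. How that total was set is not given in the sources used here. There was 1 value per gene and library. With 1 library per group there were no replicates, no test was made, and each difference below describes these 2 libraries. Every direction rests on reading the column for the condition UrRf as UUO and that for Urc as WT, which the names alone do not settle. In bulk urine RNA, fewer cells of a type and less RNA per cell cannot be told apart. Per the study's methods, urine was spun before freezing and again before its RNA was isolated. The fraction kept is not given in the sources used here, so RNA of cells and RNA outside cells were not told apart. Differences are UUO minus WT on the log2(FPKM + 1) scale, which understates changes of low genes. A gene was called different at 1 or more on that scale (2-fold), where at least 1 of the libraries reached an FPKM of 1.

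Matrix metalloproteinases are zinc enzymes made as inactive precursors, and they cut collagens, laminins and other proteins of the space between cells. Tissue inhibitors of metalloproteinases (TIMPs) bind the active enzymes and block them. Urokinase, bound to its receptor at the cell surface, turns plasminogen into plasmin, which cuts fibrin and matrix and can activate metalloproteinase precursors. In the kidney these enzymes and inhibitors take part in the turnover of the tubular basement membrane and the interstitial matrix, and the balance between them has long been studied in renal scarring.

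The stretches of DNA before the start of 3 genes are shown. These are Plaur, the gene with the greatest difference, and Plau, which encodes its ligand. Plau was the only one of the 9 lower in UUO urine as deposited. Also shown is Mmp7, the protease for which the reference table has an entry. Each stretch is the 250 bases before the RefSeq start site, in build GRCr8, written 5′ to 3′ on the strand of the gene. Capitals mark matches to TGANTCA, a form of the AP-1 site, and to the Smad3 site CAGACA or its reverse complement TGTCTG. Plaur lies on the + strand at chr1:89181113-89181362, Plau on the - strand at chr15:3511988-3512237 and Mmp7 on the + strand at chr8:13132793-13133042.
Plaur: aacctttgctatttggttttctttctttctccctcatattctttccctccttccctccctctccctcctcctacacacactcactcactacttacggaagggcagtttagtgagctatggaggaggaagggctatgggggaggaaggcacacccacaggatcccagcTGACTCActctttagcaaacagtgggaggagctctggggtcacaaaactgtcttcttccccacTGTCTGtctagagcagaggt
Plau: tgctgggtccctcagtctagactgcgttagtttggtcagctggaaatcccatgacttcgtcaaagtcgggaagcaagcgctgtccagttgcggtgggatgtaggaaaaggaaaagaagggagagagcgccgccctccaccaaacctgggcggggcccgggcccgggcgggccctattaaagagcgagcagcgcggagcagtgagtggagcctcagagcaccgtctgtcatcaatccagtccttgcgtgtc
Mmp7: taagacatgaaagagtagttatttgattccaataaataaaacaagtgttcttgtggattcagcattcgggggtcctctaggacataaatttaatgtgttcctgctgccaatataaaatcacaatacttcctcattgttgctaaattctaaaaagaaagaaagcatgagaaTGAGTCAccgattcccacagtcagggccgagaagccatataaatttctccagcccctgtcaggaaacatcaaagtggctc

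An entry was found for 6 of the 9 genes, Mmp7, Timp1, Timp2, Timp3, Plau and Plaur. TGANTCA, which reads the same way on both strands, was present in 2 of them. In Plaur it was TGACTCA, from 83 to 77 bases before the start, and in Mmp7 TGAGTCA, from 80 to 74 bases before the start. Over all 33469 stretches of the same length, 6.34% held this motif. The Smad3 letters were present in 1 of the 6, as TGTCTG from 20 to 15 bases before the start of Plaur, and in 17.2% of all stretches. TATAAA, searched on both strands, was present in Mmp7 alone of the 6, from 140 to 135 and from 43 to 38 bases before the start, and in 12.9% of all stretches. These matches are letters in a window and were not tied to the levels by any test.

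In UUO urine all 9 genes were above 0, while in WT urine 6 of them, among which were all 4 proteases, were listed at 0. Over all 16484 annotated genes, 51.3% were listed at 0 in WT and 27.2% in UUO urine. By the 2-fold limit 7 of the 9 were higher in UUO urine and 0 were lower. Over all 9853 annotated genes past the same level filter, 25.7% were higher and 36.5% lower. The 7 genes passed the level filter through the UUO library alone, and a gene listed at 0 in WT urine and at 1 or more in UUO urine differs by 2-fold by construction, so this count is a description. Without the filter the count of higher genes in the set was also 7 and of lower genes 0, against 15.4% and 21.8% of all 16484 genes. The 6 genes listed at 0 in WT urine compare with a background of 20.5% among annotated genes with FPKM of at least 1 in UUO urine. Of the 3 genes above 0 in both libraries, Timp1 was past the limit and higher, Timp2 and Plau were within it, and over all annotated genes above 0 in both libraries 8.11% were higher and 44.1% lower. The median difference over the 9 genes was 1.71, beside -0.51 over the annotated genes that passed the filter.

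**Figure D1:**
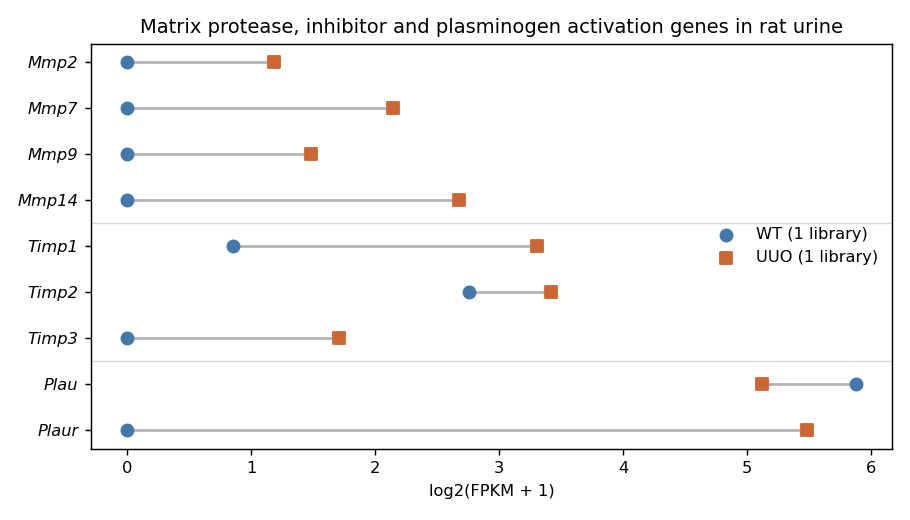
FPKM of the 9 genes on the log2(FPKM + 1) scale (x axis) in the WT library (circles) and the UUO library (squares), with a line joining the values of a gene and 1 library per group. UUO values lie to the right of WT values for all genes but Plau, and 6 WT circles lie at 0.

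Mmp14 had the highest level of the 4 proteases. It encodes a metalloproteinase anchored in the cell membrane, which activates the Mmp2 precursor. Its FPKM (gene ID 81707, chromosome 15, 36960181 to 36969559 in rn5) was 5.40 in UUO urine and 0 in WT urine, a difference of 2.68. Another 5 features share this locus, and 1 of them, the noncoding entry NONRATT020371, stood at 17.6 FPKM in WT urine and 5.34 in UUO urine. Summed over the locus, WT urine held 17.6 and UUO urine 12.1, which turned the direction at Mmp14, to a difference of -0.51, when all features were added.

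Mmp7, also called matrilysin, is a small metalloproteinase of epithelial cells and is known to be induced in injured kidney tubules. Its FPKM (ID 25335, chromosome 8, 5895392 to 5903105) was 3.42 in UUO urine and 0 in WT urine, a difference of 2.14. The AP-1 letters printed above lie before this gene.

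Mmp9 and Mmp2 encode the gelatinases, which cut denatured collagen and basement membrane collagen. Mmp9 (ID 81687, chromosome 3, 167597816 to 167605889) reached 1.79 FPKM in UUO urine and 0 in WT urine, a difference of 1.48. Mmp2 (ID 81686, chromosome 19, 26629726 to 26658966) reached 1.27 FPKM in UUO urine and 0 in WT urine, a difference of 1.18. These were the lowest levels of the set in UUO urine. Mmp2 ranked 8908th and Mmp9 8332nd of the 16484 annotated genes there, at percentiles 25.8 and 30.6 of the genes above 0.

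The depth behind the low values was small. From the steps in the values of isolated assembled features, 1 fragment on a transcript of 1000 bp was worth 0.542 FPKM in WT urine and 0.497 in UUO urine. On that scale the UUO levels correspond to 2.55 fragments per 1000 bp for Mmp2, 3.60 for Mmp9, 4.56 for Timp3, 6.88 for Mmp7 and 10.9 for Mmp14. A count of 0 in the WT library allows up to 3 fragments, an FPKM of 1.63 on 1000 bp. On a longer transcript the limit in FPKM is lower, and the lengths behind the values of the 9 genes were not used here. These figures cover counting error only, and a listed 0 can also be a failed estimate. Of the 9 genes, 4 (Mmp2, Mmp7, Mmp9 and Timp3) carry the status NOTEST, which Cuffdiff gives to features with too few alignments for its comparison.

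Zeros in WT urine were common among low genes and rare among high ones. Of 1158 annotated genes with an FPKM from 1 to below 2 in UUO urine, the range of Mmp2 and Mmp9, 59.4% were listed at 0 in WT urine. In the range from 2 to below 4, that of Mmp7 and Timp3, the share was 35.1% of 1572 genes. In the range from 4 to below 8, that of Mmp14, it was 19.3% of 2143 genes. Plaur stands in the range from 32 to below 64, where 17 of 656 genes (2.59%) were listed at 0 in WT urine.

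**Figure D2:**
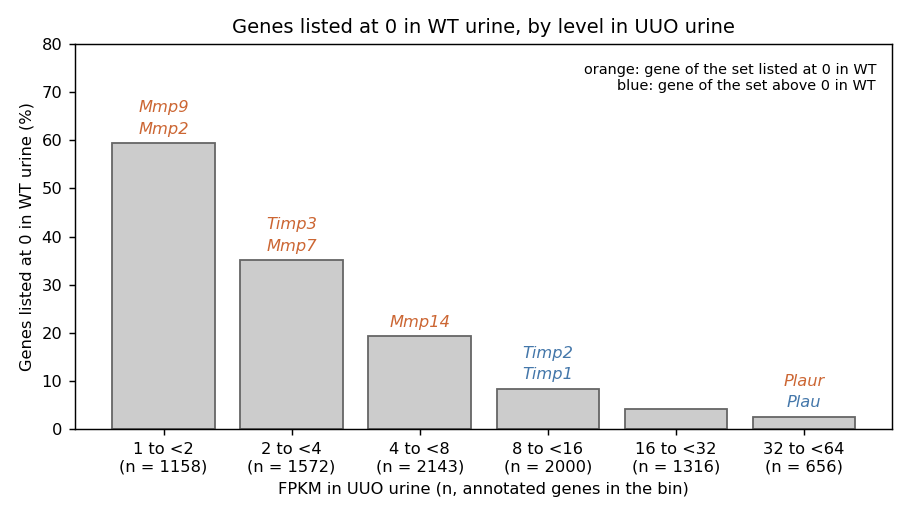
Share of annotated genes listed at 0 in WT urine (y axis, percent) by their FPKM in UUO urine (x axis, 6 ranges with the number of genes), with the 9 genes named over the range they fall in. The share drops from 59.4% to 2.59%, and Plaur, listed at 0 in WT urine, stands over the lowest bar beside Plau, which was above 0.

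Among the inhibitors, Timp1 and Timp2 were above 0 in both libraries, though Timp1 in WT urine was below an FPKM of 1. Timp1 encodes the inducible inhibitor of the family, a secreted protein that binds Mmp9 among others. Its FPKM (ID 116510, chromosome X, 2136320 to 2208959) was 8.89 in UUO urine against 0.801 in WT urine, a fold of 11.1 without a pseudocount and 2.46 on the log2(FPKM + 1) scale. The WT value corresponds to 1.48 fragments per 1000 bp. On 1000 bp that is fewer than the 3 fragments a count of 0 allows, so the fold is imprecise. Among the 16484 annotated genes Timp1 ranked 7834th in WT and 4090th in UUO urine.

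The listed locus of Timp1 also holds Araf and Syn1, which are separate genes, and 23 noncoding entries. Araf alone stood at 20.3 FPKM in WT urine and 11.9 in UUO urine. Summed over the whole locus, the level was 40.8 in WT and 25.2 in UUO urine, the other way round, with a difference of -0.67.

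Timp2 encodes the inhibitor that also helps Mmp14 to activate the Mmp2 precursor. Its FPKM (ID 29543, chromosome 10, 106971670 to 107021171) was 9.69 in UUO and 5.76 in WT urine, a difference of 0.66, short of the 2-fold limit as deposited. It was past the limit under all 4 rescalings and when the 14 features of its locus were added (a difference of 1.08). Its rank among the annotated genes was 6208th in WT and 3831st in UUO urine. Timp3, whose protein is held in the extracellular matrix, reached 2.27 FPKM in UUO urine (ID 25358, chromosome 7, 23553830 to 23958658) against 0 in WT urine, a difference of 1.71. Its locus spans 404829 bp and also holds the synapsin gene Syn3.

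The highest levels of the set belonged to the plasminogen activation pair. Plau, which encodes urokinase, the plasminogen activator of the urinary tract, reached 57.8 FPKM in WT urine (ID 25619, chromosome 15, 3621056 to 3627467) against 33.7 in UUO urine, a difference of -0.76. In FPKM the WT level was 1.71 times the UUO level. By rank among the 16484 annotated genes Plau stood 1211th in WT and 1022nd in UUO urine. The direction of its level depended on the scaling, as given below.

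Plaur encodes the urokinase receptor, a protein anchored at the cell surface by a lipid. Its FPKM (ID 50692, chromosome 1, 82587240 to 82602924) was 43.6 in UUO and 0 in WT urine, a difference of 5.48, the greatest of the 9. In UUO urine it ranked 731st of 16484 annotated genes, at percentile 93.9 of those above 0, and its level corresponds to 87.7 fragments per 1000 bp. The other 2 features of its locus, both noncoding entries, were also listed at 0 in WT urine, and the locus summed to 47.1 in UUO urine. Receptor and ligand thus showed unlike patterns: WT urine held Plau with no Plaur listed, and UUO urine held 1.29 times as much Plaur as Plau in FPKM.

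Ratios within a library do not change when the library is rescaled by a single factor. The 4 proteases summed to an FPKM of 11.9 and the 3 inhibitors to 20.8 in UUO urine, a ratio of 0.569. In WT urine the inhibitors summed to 6.57 and the proteases were listed at 0, so no ratio was formed. These sums leave out measured relatives. The 17 other metalloproteinase genes summed to 24.6 in UUO and 2.69 in WT urine. Timp4, the remaining inhibitor gene, stood at 0 in UUO and 19.2 in WT urine. The balance of the sums therefore depends on which genes are included, and it does not describe the whole families. Within UUO urine Mmp9 stood at 0.201 and Mmp7 at 0.385 of the level of Timp1, and Mmp2 at 0.131 and Mmp14 at 0.557 of the level of Timp2. In each of these pairs the inhibitor was the higher transcript. With FPKM summed over each locus, which at Timp1 takes in Araf, the ratios to Timp1 were 0.0929 for Mmp9 and 0.174 for Mmp7. Between the genes above 0 in both libraries, 2 further ratios were chosen after their values were seen. Timp1 was 0.139 of Timp2 in WT and 0.918 in UUO urine. The WT ratio rests on the low Timp1 value given above and is imprecise. Plau was 10.02 times Timp2 in WT and 3.48 times in UUO urine.

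Scaling moved the whole distribution. As deposited, UUO urine was higher for 2534 annotated genes and lower for 3600, and higher genes made up 41.3% of those past the limit. Rescaling by the median ratio of the 7218 genes detected in both libraries gave 4207 higher and 1652 lower, or 71.8% higher. The median difference of those 7218 genes was -0.81 as deposited, -0.25 with equal sums and 1.70 with an equal 75th percentile. Beside the deposited median of -0.81, Plau at -0.76 lay close to it and Timp2 at 0.66 above it. By the median ratio 8 of the 9 genes were past 2-fold higher, against 39.8% of all annotated genes, and after scaling to the 75th percentile all 9 were, against 79.2%. The difference of Plau was -0.15 with equal sums, 0.092 when the sums were taken over annotated genes without haemoglobin, 0.12 with the median ratio and 1.87 with the 75th percentile. The other 8 genes were higher in UUO urine as deposited. Each rescaling multiplied UUO values by a factor above 1 (1.54 to 6.34). These 8 genes could therefore only stay higher, and the rescalings are no check on their direction.

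**Figure D3:**
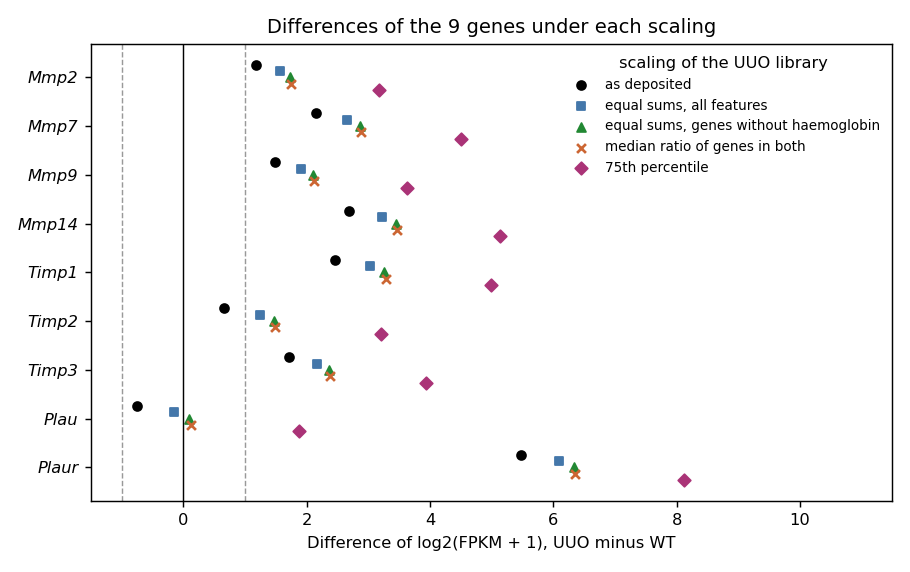
Difference of log2(FPKM + 1), UUO minus WT (x axis), of the 9 genes with the UUO library as deposited and under 4 rescalings, with dashed lines at the 2-fold limits of -1 and 1. Every rescaling moves the genes to the right, and Plau crosses 0, from -0.76 as deposited to 1.87 by the 75th percentile.

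Further genes of the same pathways were taken from 6 lists, with 70 of 76 listed genes measured. Of these, 42 had FPKM of at least 1 in either library, 19 were higher and 3 lower in UUO urine, and 14 of the 42 passed the level filter through UUO urine alone. Their median difference was 0.79. The shares of all annotated genes given above (25.7% higher, 36.5% lower) are the background of these counts.

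Of the 17 other metalloproteinase genes measured, 16 were listed at 0 in WT urine and 8 of these in UUO urine too, beside the 51.3% and 27.2% of all annotated genes. Only 5 of the 17 passed the level filter, and all 5 were higher in UUO urine. The exception to the zeros was Mmp15, a membrane-anchored relative of Mmp14, with 13.6 FPKM in UUO urine and 2.69 in WT urine, a difference of 1.99. The collagenase genes Mmp13 (2.86) and Mmp8 (1.84), the stromelysin gene Mmp3 (1.43) and Mmp19 (2.48) had these FPKM values in UUO urine and were listed at 0 in WT urine, all in the range where zeros in WT urine were frequent.

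Of 8 other inhibitors and activators 5 passed the level filter, and 1 of these was higher and 1 lower. Lcn2, whose product lipocalin-2 can form a complex with Mmp9 and is released by injured tubules, stood at 8.63 FPKM in UUO urine and 0 in WT urine. Timp4, the remaining gene of the inhibitor family, went the other way, with 19.2 FPKM in WT urine and 0 in UUO urine. Of 1660 annotated genes with a WT FPKM from 16 to below 32, 17 (1.02%) were listed at 0 in UUO urine. Timp4 therefore differed in direction from Timp1, Timp2 and Timp3 as deposited and, being listed at 0, under each rescaling.

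Of 15 other genes of plasminogen activation 10 passed the level filter, and of these 4 were higher and 2 lower. Plat, the gene of tissue plasminogen activator, stood at 13.6 FPKM in UUO urine and 0 in WT urine, a difference of 3.87. Anxa2, which encodes an annexin that binds plasminogen at the cell surface, was 109 in UUO and 36.3 in WT urine, and Plgrkt, a plasminogen receptor gene, 1.90 and 0. The lower genes were Hpn, the gene of the membrane protease hepsin, at 15.1 in UUO and 41.8 in WT urine, and Eno1, a glycolytic enzyme gene whose product also binds plasminogen, at 23.8 and 56.3. Eno1 has near-identical copies in the genome, so its level is uncertain. Plasminogen itself (Plg) was listed at 0 in both libraries. Within UUO urine the level of Plat was below that of Plau, 13.6 against 33.7.

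Of 12 ADAM and ADAMTS protease genes 7 passed the level filter and 2 were higher, Adamts1 at 6.55 FPKM in UUO urine and 2.11 in WT urine and Adamts15 at 1.11 and 0. Of 7 genes of cathepsins and their inhibitors, the cystatins, 6 passed the level filter and 4 were higher, and all 4 were cathepsins, which are proteases of the lysosome. Ctsb was 210 in UUO and 36.5 in WT urine, Ctsl 48.7 and 7.97, Ctsz 15.6 and 0, and Ctss 2.72 and 0. The cystatin genes Cst3 and Cstb differed by 0.03 and 0.24. Of 11 genes of matrix proteins cut by these enzymes, 9 passed the level filter and 3 were higher: Spp1, the gene of osteopontin, at 129.7 in UUO and 0 in WT urine, Fn1 (fibronectin) at 6.33 and 0.921, and Eln (elastin) at 1.09 and 0.

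**Figure D4:**
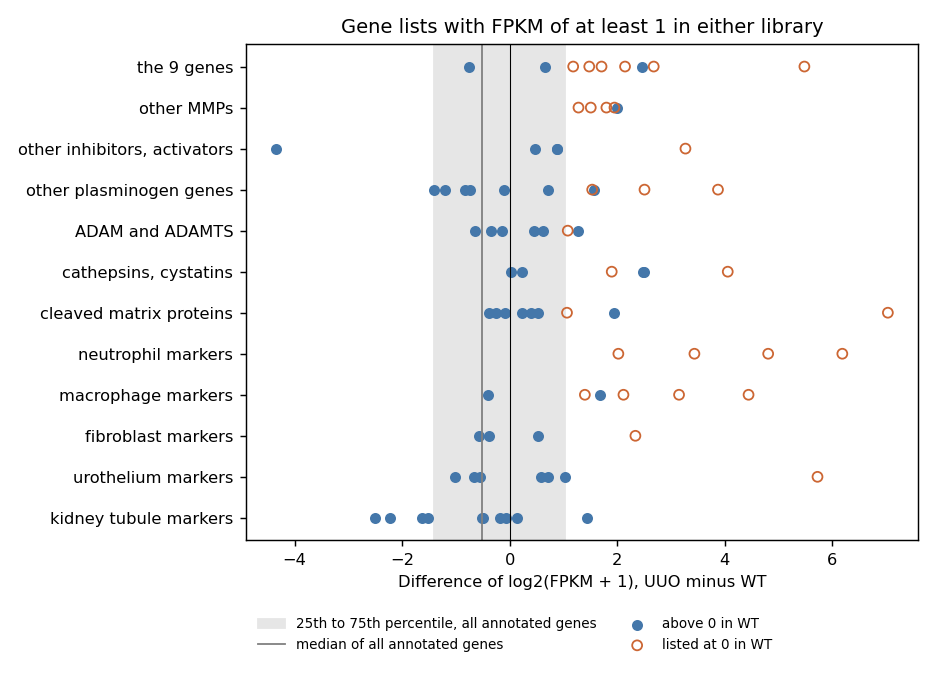
Difference of log2(FPKM + 1), UUO minus WT (x axis), of each gene past the level filter, by list (rows), with open circles for genes listed at 0 in WT urine. The grey band spans the 25th to 75th percentile of all annotated genes, -1.40 to 1.03, and the grey line their median of -0.51.

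Cell type markers moved between the libraries as well. All 8 neutrophil markers were listed at 0 in WT urine, where 51.3% of all annotated genes were. In UUO urine 5 of them were above 0 and all summed to an FPKM of 112, of which S100a9 held 71.7. Of the granule protein genes, Camp stood at 9.81 in UUO and 0 in WT urine, while Mpo, Elane and Ltf were at 0 in both. The 9 macrophage and monocyte markers summed to 9.61 in WT and 62.8 in UUO urine. The highest in UUO urine were Lyz2 (26.5, and 7.55 in WT urine) and Tyrobp (20.7, and 0 in WT urine). Cd14 went the other way, at 2.05 in WT and 1.31 in UUO urine. Csf1r (0.935) and Adgre1 (0.536) stayed below an FPKM of 1 in UUO urine, and Cd163 was at 0 in both. The 4 measured red cell markers summed to 878 and 55275. Neutrophils carry Mmp9 and Mmp8, and monocytes and neutrophils carry Plaur, and the part of these cells in the levels of the set was not tested. The 7 fibroblast markers summed to 29.7 in WT and 32.7 in UUO urine, with Col1a2 at 0 in both, and the 6 endothelial markers to 3.33 and 3.96. Urothelium (7 measured markers, 834 and 1131) and kidney tubule (10 markers, 311 and 189) were represented in both libraries, and the 4 podocyte markers summed to 15.2 and 47.8.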

How the data were processed

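RNA of 1 WT (sham) and 1 UUO rat urine library was analysed. Per the labels and the study's methods, the authors aligned read pairs with TopHat2 2.0.9 and Bowtie2 2.0.6 to rn5, assembled transcripts with Cufflinks 2.1.1 and Scripture, and compared conditions with Cuffdiff 2.1.1. The deposited table gives 1 FPKM value per feature and library, and the total used in its scaling is not given in the sources used here. The authors' fold changes, test statistics, p-values and q-values, also deposited there, were not used. Coordinates are those of the table, whose loci merge overlapping features, and overlapping entries share out the reads.

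Of 113011 features, 16484 carry NCBI gene IDs, and 16329 of these received a symbol from a RefSeq table of GRCr8, which also gave the promoter sequences. Differences of log2(FPKM + 1) were computed with pandas 2.3.3 in Python 3.11.15. No test was possible. Values of isolated assembled features spanning 400 to 1200 bp were fitted as whole fragments. The share within 0.1 of an integer was 93.5% of 186 values in WT and 99.4% of 3530 in UUO urine, at normalising totals of 2116000 and 2440000 fragments. The number of fragments limits the precision of each value.

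The 9 genes, the lists and the settings were chosen with earlier results of these data known. All 9 genes are named, as is each gene of the 6 further pathway lists that was past 2-fold and past the level filter, except 1 gene whose values are not reported here. Any further gene was picked with its values in view. Alternatives were pseudocounts of 0.1 and 10, 4 rescalings of the UUO library, an FPKM of at least 5, no filter, a 4-fold limit and sums over a locus. No gene is named for likeness to another, since 2 libraries give 1 difference per gene.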

Additional observations from a re-analysis of the deposited data

Results flagged for a closer look

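Of the 62 noncoding entries that share a locus with the 9 genes and enter none of the comparisons by gene, 11 reached an FPKM of 1 in at least 1 library. Of these 11, 7 were higher in UUO urine than in WT urine, the control library, and 4 were lower. Each of the 11 carries the status LOWDATA or NOTEST rather than OK. The share over all noncoding features was not computed, so these counts are a description. At the Timp2 locus NONRATT012671 stood at 6.78 FPKM in UUO urine and 2.15 in WT urine, and NONRATT012662 at 2.34 and 0. At the Timp3 locus NONRATT051107 stood at 2.84 FPKM in UUO urine and 1.17 in WT urine. At the Plaur locus NONRATG000497 had an FPKM of 2.01 and NONRATT000852 of 1.55 in UUO urine, and both were listed at 0 in WT urine. At the Mmp14 locus NONRATT020368 had an FPKM of 1.30 and at the Plau locus NONRATT020954 of 1.31 in UUO urine, and both were listed at 0 in WT urine. The 4 lower entries were NONRATT020371 at the Mmp14 locus, given above, and 3 at the Timp1 locus, NONRATG031260 at 12.7 FPKM in WT urine and 2.20 in UUO urine, NONRATT058538 at 5.34 and 0.354, and NONRATT058534 at 1.67 and 0.403. Reads of overlapping entries are divided among them, so these levels and those of the genes they overlap are uncertain.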

How the results depend on the processing

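No paired analysis was possible because there is 1 library in each group. Counts within 1.5 times of the reported one, and single differences with the same sign on the same side of 1, count as unchanged. The 7 genes of the set that were higher in UUO urine became 1 with a pseudocount of 10, 3 with FPKM of at least 5, 4 with a 4-fold limit and 1 (Timp1) when only genes above 0 in both libraries were counted, a setting chosen after seeing the data. The count of lower genes in the set was 0 under each of these settings. In the wider lists, the 19 higher genes became 6 with a pseudocount of 10, 29 with equal sums, 32 with equal sums over genes without haemoglobin, 33 with the median ratio, 51 with the 75th percentile, 10 with FPKM of at least 5, 7 with a 4-fold limit and 6 among genes above 0 in both. The 3 lower genes became 1 under each of the 4 rescalings and the 4-fold limit, and 6 when FPKM was summed over loci. Over all annotated genes past the level filter, 35.0%, 39.1%, 39.8% and 79.2% were higher under the rescalings, in the order given. The lower shares were 20.8%, 16.1%, 15.6% and 3.60%. As deposited the shares were 25.7% and 36.5%, and among genes above 0 in both 8.11% and 44.1%. Shares over all genes were not computed for the pseudocounts, the FPKM of at least 5, the 4-fold limit or the locus sums. Of 63 differences of single genes under an alternative, 47 were unchanged, 5 passed the limit (all Timp2), 6 fell short of it with a pseudocount of 10, and 5 reversed. Most of the 47 were fixed by the settings, so their number is no measure of stability. The 4 rescalings only raise UUO values, and a pseudocount of 0.1 only widens a difference from a WT value of 0. The reversals were Plau at 0.092 with equal sums over genes without haemoglobin, 0.12 with the median ratio and 1.87 with the 75th percentile, and Mmp14 at -0.51 and Timp1 at -0.67 with FPKM summed over the locus, where other features held WT signal. Rescaling multiplies UUO values by 1 factor of 1.54 to 6.34, which raises the counts of higher genes and lowers those of lower genes. The ratios of Mmp9 and Mmp7 to Timp1 in UUO urine moved from 0.201 to 0.0929 and from 0.385 to 0.174 with sums over loci. Limits and pseudocounts change which low genes can be counted. Depth limits the zeros, since Mmp2 and Mmp9 stood on fewer than 4 fragments per 1000 bp in UUO urine.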
